A study of Zea mays subsp. mays and Zea mays subsp. parviglumis and Zea luxurians with 126 samples.

Results

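The sites described here are cuts that the 24-nt phasiRNA of one PHAS locus was predicted to guide on the precursor of another PHAS locus, in the anthers of maize, teosinte and ago18 plants. A site was a member when its small RNA was named for a 24-PHAS locus and its target was a PHAS locus other than that source. There were 1010 such trans sites among the 181472 small RNA sites listed over all 63 libraries, 993 on 24-PHAS loci and 17 on 21-PHAS loci. They came from 133 source loci, 263 target loci and 380 pairs of source and target. The tables behind them came from nanoPARE, which captures the 5′ ends of RNAs, each scored by the EndCut step against the sites predicted for a small RNA. For each site the table gave an Allen score (a penalty for mismatches, 0 for a perfect match), the 5′ ends at the site in RPM (reads scaled to the size of the library), and an adjusted p-value. A site passed when its adjusted p-value was below 0.05, and an interaction was a small RNA with a target it passed on in a library, counted once. A positive pair was one that passed in at least 2 replicates of its group.

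The 24 groups were set by plant and anther length, with 2 or 3 replicates each taken from distinct plants. Maize was represented by B73, HP301, Il14H and Oh43, inbred lines sampled at 0.4 mm (premeiotic) and 2 mm (meiotic). The teosintes were TIL11 (ssp. parviglumis, at 0.4, 0.7, 1, 1.5 and 2 mm), TIL25 (ssp. mexicana, 0.4 and 1.5 mm) and RIL003 (Z. luxurians, 0.4, 0.7 and 1.5 mm). The ago18 plants were triple homozygous mutants (ago18HM) and triple heterozygotes (ago18HT) at 0.5, 2 and 5 mm, in a mostly B73 background. They combine CRISPR null alleles of ago18a and ago18b with a Mu insertion in ago18c, and neither genotype carries the transgene. The maize lines grew in a greenhouse and the teosintes in a growth chamber, so variety and growth conditions cannot be told apart. The depth of the libraries was 1.35 to 18.7 M (mega) reads, and its median was 7.55 M reads. One library, ago18HT-2mm replicate 3, stood apart from its group: miR2275 had 2 passing interactions with 24-PHAS loci there and 66 and 59 in replicates 1 and 2. The tables hold cut sites and no expression values, so the ago18 genotypes could not be checked from them.

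In grass anthers, biogenesis of meiotic 24-nt phasiRNAs starts when miR2275, a 22-nt miRNA, guides a cut in the transcript of a 24-PHAS locus. The cut transcript is made double-stranded and DCL5 then dices it in steps from the cut. The phasiRNAs of such a locus thus lie in a regular register downstream of the miR2275 site. For premeiotic 24-nt phasiRNAs, the study proposes that miRNAs are likely not the trigger. ARGONAUTE proteins carry small RNAs to their targets, and slicing falls opposite bases 10 and 11 of the small RNA. AGO18 is a grass-specific ARGONAUTE, and in maize AGO18b is known to load phasiRNAs. A phasiRNA that cuts its own precursor acts in cis, and one that cuts the precursor of another locus acts in trans.

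The names of the small RNAs hide a difference between the sources that their sequences show. The locus list of the study gives the most abundant small RNA of each PHAS locus for the sources in B73, HP301, Il14H and TIL11, and 37 of the 88 source loci with a passing site had an entry. For 35 of these loci that small RNA was 24 nt long, and for 17 of the 37 it began with A. The sources used here do not say that the sequence searched was this one. In the other 2 sources it was 22 nt long and identical to miR2275c-3p as listed for Il14H, shown here with the seed (bases 2 to 8) in capitals.
miR2275c-3p (Il14H): uUCAGUUUccucuaauaucuca
B73_24PHAS_53395: uUCAGUUUccucuaauaucuca
Il14H_24PHAS_28164: uUCAGUUUccucuaauaucuca
B73_24PHAS_53395 lies at chr10:72453877-72454822 of B73 RefGen_v5. The RefSeq annotation of the NAM-5.0 assembly of B73 places MIR2275c at chr10:72454081-72454317, inside that locus. Of the 26 B73 loci in passing sites, 1 overlapped a RefSeq miRNA gene. Il14H_24PHAS_28164 lies at chr10:72566436-72567360 of the Il14H assembly. In the locus lists of B73, HP301, Il14H, Oh43 and TIL11, these were the only 24-PHAS loci whose most abundant small RNA was 22 nt long and within 4 mismatches of miR2275c-3p. For the sources in TIL25 and RIL003 no sequence is printed.

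The 24-nt small RNAs of other sources recurred between varieties, and they are shown because the same loci returned as sources in different genomes. Bases 10 and 11 are in capitals.
B73_24PHAS_30716: auacacuucUCgcguuaacugcuc
HP301_24PHAS_14218: auacacuucUCgcguuaacugcuc
B73_24PHAS_35076: ggaagccgaUAgaugcaauuugaa
HP301_24PHAS_17153: ggaagccgaUAgaugcaauuugaa
HP301_24PHAS_2060: acaaacgauCAuaauaggaacgac
TIL11_24PHAS_3552: acaaacgauCAuaauaggaacgac
Each of these 3 pairs was identical. They lie near the same place in the assemblies: chr5:161027802-161029669 in B73 and chr5:161418026-161420469 in HP301 for the first, chr6:38853018-38853113 and chr6:38661983-38662285 for the second. The third pair lies at chr1:185489907-185492116 in HP301 and chr1:185562945-185564618 in TIL11. A further pair from chromosome 4 differed at 1 base, which is the capital in the next lines.
Il14H_24PHAS_11317: uacucggcggcaaCgacauuaaga
TIL11_24PHAS_17336: uacucggcggcaaUgacauuaaga
Counted from the 5′ end of the Il14H sequence, the difference is C14U. Il14H_24PHAS_11317 lies at chr4:7706191-7706822 and TIL11_24PHAS_17336 at chr4:7996444-7996517.

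Of the 1010 listed trans sites, 629 passed (62.3%), against 5.41% of all 88804 phasiRNA sites in the tables. Of 436 listed cis sites, 97.2% passed, and of 3715 trans sites of 21-nt phasiRNAs on PHAS loci, 44.1% did. For comparison, 14.6% of the 24-nt phasiRNA sites on other transcripts passed and 61.7% of the miR2275 sites on 24-PHAS loci. Passing trans sites were on 24-PHAS loci in 628 cases and on a 21-PHAS locus in 1. They were found in 26 of the 63 libraries.

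The passing sites fell into 2 kinds that the position of the miR2275 cut separates. At 275 of the 629 passing sites (43.7%), a miR2275 site was listed at the same nucleotide of the same target in the same library. The miR2275 site itself passed in 269 of those. The remaining 354 passing sites lay at other positions. Over all listed sites, 501 of 1010 shared a position with miR2275, of which 54.9% passed, against 69.5% of the 509 others. At each of the 501 the RPM of the trans site equalled that of the miR2275 site, since both describe the same 5′ ends. The cut at such a position therefore cannot be credited to one of the small RNAs rather than the other from these tables. For B73_24PHAS_53395 and Il14H_24PHAS_28164, the most abundant small RNA is itself identical in sequence to miR2275c-3p. Their sites are counted as 24-nt phasiRNA interactions by name only, also in the maize and ago18 comparisons below.

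Sites at miR2275 positions came from few sources, matched poorly and had many reads. The 275 passing sites had 5 sources and 98 targets. Their Allen scores ran from 1 to 6 with a median of 4.5, and none was 0. Their median signal was 54.2 RPM, or 375 reads, and the highest was 2220 RPM. Sites away from miR2275 positions had many sources, matched well and had few reads. The 354 passing sites had 83 sources and 119 targets, and 249 of them (70.3%) had an Allen score of 0. All 249 listed sites away from miR2275 positions with a score of 0 passed, as did all 421 such cis sites. A score of 0 thus always went with passing, whatever the number of reads. The good match and low signal of the passing sites are therefore not independent of how sites passed. Their median signal was 0.168 RPM, or 1.07 reads, and the highest was 4.75 RPM.

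**Figure D1:**
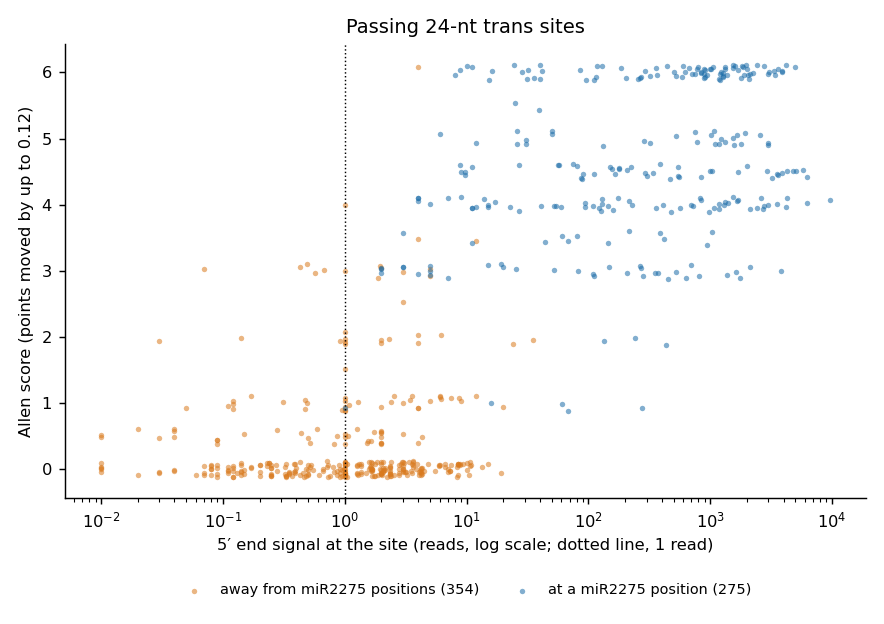
Each point is a passing 24-nt trans site, with the 5′ end signal in reads on a log axis and the Allen score on the other axis, moved by up to 0.12 to separate points. The 275 sites at miR2275 positions (blue) lie at a median of 375 reads and a median score of 4.5, and the 354 sites away from them (orange) at a median of 1.07 reads, with 249 at a score of 0.

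A large share of the sites away from miR2275 positions rested on 1 read or less. Reads were recovered as RPM divided by the RPM of a single read. Values below 1 occur where a read is counted in part, and the sources used here do not state the rule for reads that map to several places. Of the 354 sites, 172 (48.6%) had at most 1 read and 144 (40.7%) less than 1 read. Among passing cis sites, 9.20% had less than 1 read, and the median was 2 reads. Among the 275 sites at miR2275 positions, 1 had at most 1 read. Less than 1 read sufficed for an adjusted p-value below 0.05: the pair Il14H_24PHAS_2404 and Il14H_24PHAS_2406 passed in both Il14H-2mm libraries with 0.00265 and 0.0104 RPM, or 0.02 and 0.09 reads.

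**Figure D2:**
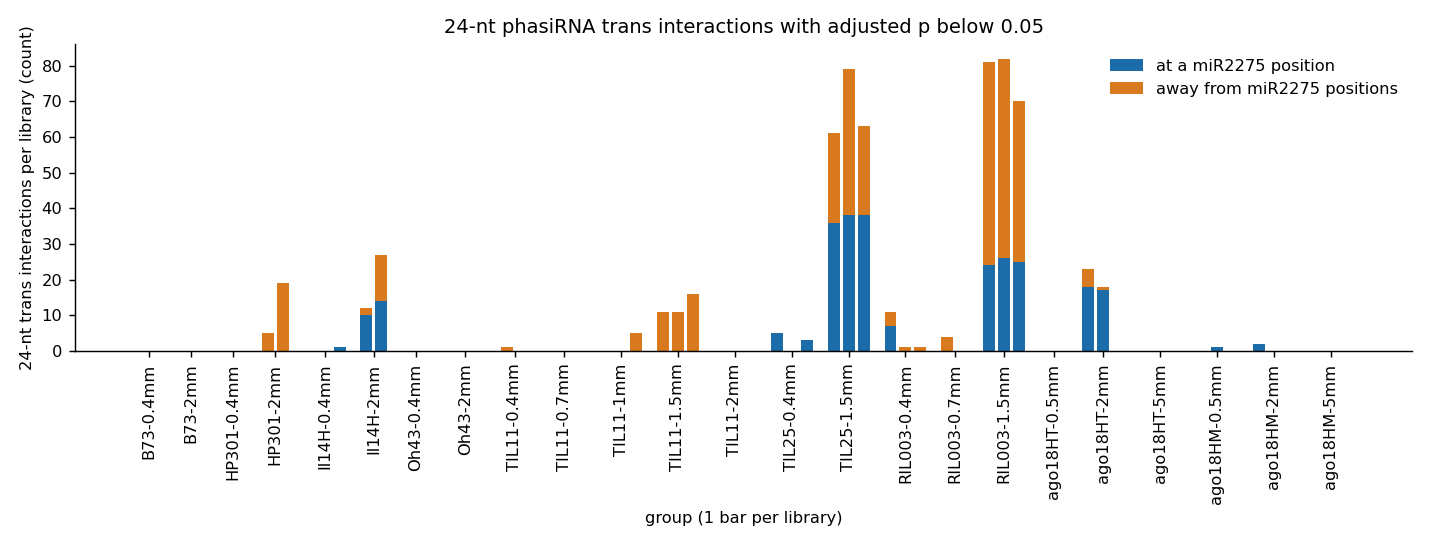
Bars give the number of 24-nt trans interactions in each of the 63 libraries, grouped by plant and anther length, with those at miR2275 positions in blue and those away from them in orange. The 3 RIL003-1.5mm libraries reach 70 to 82 and the 3 TIL25-1.5mm libraries 61 to 79, while the B73 and Oh43 libraries are at 0.

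Positive pairs were found in 7 of the 24 groups, 187 in all when each group is counted on its own, 90 at miR2275 positions and 97 away from them. RIL003-1.5mm had 76 (24 at and 52 away), TIL25-1.5mm had 67 (38 and 29), and ago18HT-2mm had 18 (17 and 1). Il14H-2mm had 11 (10 and 1), TIL11-1.5mm had 9, all away, HP301-2mm had 5, all away, and TIL25-0.4mm had 1, at a miR2275 position. Of the 97 pairs away, 61 had a passing library with at most 1 read, and none of the 90 pairs at miR2275 positions did. With at least 2 reads required in each counted library, the 97 pairs away fell to 36. Pairs of both kinds then numbered 43 in RIL003-1.5mm, 2 in TIL11-1.5mm and 1 in HP301-2mm.

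In the ago18 plants, which were searched against B73 loci, a single source accounted for the passing sites at miR2275 positions. In ago18HT-2mm, B73_24PHAS_53395 had 17 positive targets, on chromosome 2 (6 loci), chromosomes 6, 9 and 10 (3 loci each) and chromosome 4 (2 loci). The 6 on chromosome 2 lie together at chr2:234853389-234985591. The highest signal was at position 635 of B73_24PHAS_48860 (chr9:26391380-26392661), with 84.5, 34.9 and 0.1 RPM in the 3 libraries. The first 2 libraries were high and replicate 3 was low, where the site did not pass. The pair first by the naming rule, tied with others on adjusted p-value and taken by name, was on B73_24PHAS_14666 (chr2:234853389-234854540). It had 29.9, 9.98 and 0.0251 RPM, in the same order. Allen scores of the 17 targets ran from 3 to 6.

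In Il14H, the source Il14H_24PHAS_28164 had 10 positive targets in 2-mm anthers, 4 of them on chromosome 9 and 2 each on chromosomes 2, 6 and 10. The highest was Il14H_24PHAS_28195, with 51.1 and 48.7 RPM in the 2 libraries. Il14H_24PHAS_18561 (chr6:64422690-64424208) had 2.12 and 7.05 RPM and an Allen score of 1. For the other 8 targets replicate 4 was above replicate 3, between 4.68 and 31.6 RPM against 0.927 to 10.8 RPM. All 34 listed sites of this source had the same Allen score as the miR2275c-3p site at their position. For B73_24PHAS_53395 the score was the same in 140 of 143 sites.

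In RIL003, the source RIL003_24PHAS_13865 had 24 positive targets in 1.5-mm anthers, and each passed in all 3 libraries. Signals ran from 3.56 to 673 RPM. The pair first by the naming rule, tied with others on adjusted p-value and taken by name, was with RIL003_24PHAS_16789. It had 405, 448 and 381 RPM (411 ± 34 SD, n = 3). RIL003_24PHAS_8036 had 530, 673 and 522 RPM. These libraries were close to each other, with medians over passing sites at miR2275 positions of 155, 123 and 136 RPM. The Allen score equalled that of a miR2275 site in 96 of the 138 listed sites of this source.

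In TIL25 2 sources shared the sites at miR2275 positions. TIL25_24PHAS_24551 and TIL25_24PHAS_9879 each had 19 positive targets in 1.5-mm anthers, 18 of which passed in all 3 libraries. The pair first by the naming rule, TIL25_24PHAS_24551 and TIL25_24PHAS_16567, had 3.18, 24.9 and 49.9 RPM. TIL25_24PHAS_1832, a target of the second source, reached 196, 2220 and 1170 RPM (1200 ± 1010 SD, n = 3). The 3 TIL25-1.5mm libraries differed in level, with medians of 43, 344 and 189 RPM, and replicate 1 was the lowest. The pair TIL25_24PHAS_24551 and TIL25_24PHAS_6660 was the only pair positive in 2 groups. Its site at position 701 had 3.77 and 3.72 RPM in TIL25-0.4mm replicates 1 and 3, and 167, 1320 and 949 RPM in the TIL25-1.5mm libraries. Signal at the longer length was above that at the shorter length in every library where it passed.

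HP301, Oh43 and TIL11 had no passing trans site at a miR2275 position. The miRNA itself was not missing there: the 2-mm libraries of HP301 had 65 and 68 passing miR2275 interactions with 24-PHAS loci, the Oh43-2mm libraries 30 to 57, and the TIL11-1.5mm libraries 66 to 73. None of the 24-PHAS loci listed for these 3 varieties had a 22-nt most abundant small RNA within 4 mismatches of miR2275c-3p. The B73 libraries also had no passing trans site at a miR2275 position, although B73 has such a locus, B73_24PHAS_53395. That source was listed on 16 and 4 targets in B73-2mm replicates 1 and 2, and none passed.

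Away from miR2275 positions, source and target were neighbours. In the varieties with a locus list, 63 of 65 pairs of loci lay on 1 chromosome, 47 of them within 100 kb, with a median distance of 37.3 kb. At miR2275 positions 5 of 32 pairs lay on 1 chromosome, none within 1 Mb, and the shortest distance was 3320 kb. In the locus lists of B73, HP301, Il14H, Oh43 and TIL11, locus numbers follow the order along the chromosomes without an exception. In RIL003, 68 of 76 pairs away from miR2275 positions were within 20 locus numbers, and in TIL25 41 of 43 were, against 0 of 27 and 0 of 39 pairs at miR2275 positions.

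**Figure D3:**
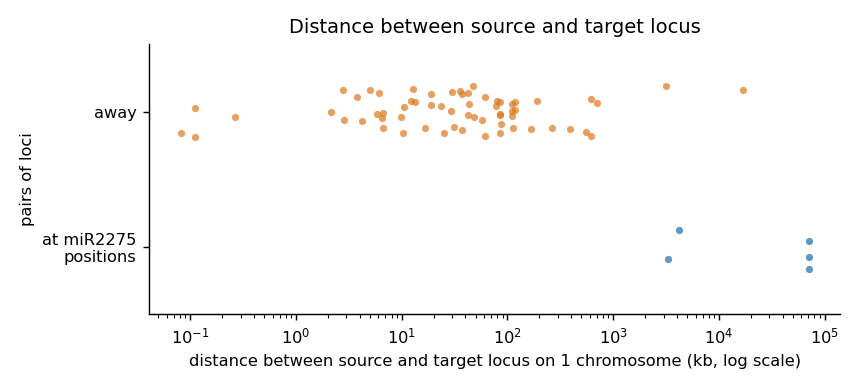
Points are pairs of source and target locus that lie on 1 chromosome in B73, HP301, Il14H or TIL11, with the distance between them in kb on a log axis. The 63 pairs away from miR2275 positions (orange) have a median of 37.3 kb, and the 5 pairs at miR2275 positions (blue) lie at 3320 kb or more.

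Blocks at like coordinates were found in several genomes. A block on chromosome 4 linked 5 loci by 4 pairs at chr4:7482516-7496974 in HP301, 5 loci by 4 pairs at chr4:7699447-7713914 in Il14H, and 7 loci by 12 pairs at chr4:7976278-8013822 in TIL11. A block on chromosome 5 linked 4 loci by 5 pairs at chr5:161418026-162121899 in HP301 and 2 loci by 1 pair at chr5:161027802-161586851 in ago18HT on the B73 reference. A block on chromosome 6 linked 6 loci by 6 pairs at chr6:38661439-38773099 in HP301 and 5 loci by 4 pairs at chr6:38852499-38938345 in ago18HT. On chromosome 1, TIL11 had 6 pairs among 5 loci at chr1:185535918-185596868, and HP301 had 1 pair at chr1:185489907-185605568, whose locus HP301_24PHAS_2060 has the same small RNA as TIL11_24PHAS_3552 of the TIL11 block. Several of these blocks rested on 1 library and low signal. On chromosome 4, all 4 sites had 0.15 to 0.45 reads in HP301 and 0.43 to 0.91 reads in Il14H. On chromosome 6, HP301_24PHAS_17152 had 5 sites at 0.11 to 0.49 reads, and B73_24PHAS_35076 had 4 at 0.01 to 0.9 reads. The HP301 pair on chromosome 1 had 1 read. Matching of these blocks rests on their coordinates and on the sequences printed above. The assemblies were not aligned to each other.

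In TIL11-1.5mm, 2 loci of the chromosome 4 block gave 8 of the 9 positive pairs. TIL11_24PHAS_17336 had 5 positive targets in all 3 libraries, with Allen scores of 0 or 0.5. Its site on TIL11_24PHAS_17339 had 0.115, 0.306 and 0.282 RPM, and that on TIL11_24PHAS_17335 had 0.0635, 0.114 and 0.266 RPM. TIL11_24PHAS_17332 had 3 positive targets, and its site on TIL11_24PHAS_17339 had 0.132, 0.294 and 1.25 RPM. TIL11_24PHAS_17334 was a target of both sources. The naming rule gave the pair of TIL11_24PHAS_17332 and TIL11_24PHAS_17334, with 0.793 and 0.262 RPM in 2 of the libraries. The highest of these values was 8.81 reads. The 5 sites of TIL11_24PHAS_17336 had 0.48 to 0.87 reads in replicate 1, and the one on TIL11_24PHAS_17334 had 0.09 reads in replicate 2.

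In HP301-2mm the 5 positive pairs linked 4 loci of the chromosome 5 block. HP301_24PHAS_14236 (chr5:162033486-162034676) had 3 targets and HP301_24PHAS_14218 had 2, and each was a target of the other. HP301_24PHAS_14238 (chr5:162121150-162121899) was a target of both, with 0.0852 and 0.363 RPM for HP301_24PHAS_14218 and 0.0187 and 0.079 RPM for HP301_24PHAS_14236. On HP301_24PHAS_14236 itself, the site of HP301_24PHAS_14218 had 0.0568 and 0.329 RPM. In ago18HT-2mm, B73_24PHAS_30716, whose small RNA is that of HP301_24PHAS_14218, had 1 positive target, B73_24PHAS_30735 (chr5:161585528-161586851). It had 0.582 and 0.374 RPM in replicates 1 and 2 and was not listed in replicate 3.

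RIL003-1.5mm had the most positive pairs away from miR2275 positions, 52, and with at least 2 reads required its positive pairs of both kinds fell from 76 to 43. A run of 10 loci numbered from RIL003_24PHAS_14189 to RIL003_24PHAS_14201 was linked by 25 of the 52 positive pairs away from miR2275 positions, and 9 loci from RIL003_24PHAS_2325 to RIL003_24PHAS_2348 by 13. RIL003_24PHAS_14190 had 8 targets, and RIL003_24PHAS_14191 and RIL003_24PHAS_14198 had 6 each. For each of these sources, the sites on RIL003_24PHAS_14200 and RIL003_24PHAS_14201 had equal values. Such targets cannot be counted as independent sites. RIL003_24PHAS_14194 was a target of 5 sources, and for RIL003_24PHAS_14191 its site had 2.04, 1.44 and 1.34 RPM. The site of RIL003_24PHAS_14190 on RIL003_24PHAS_14189 had 0.137, 0.541 and 1.12 RPM. The 6 targets of RIL003_24PHAS_14198 were all below 1 read, with 0.00406 to 0.0684 RPM. The highest signal of a positive pair away from miR2275 positions was that of RIL003_24PHAS_2339 on RIL003_24PHAS_2325, with 3.29, 4.75 and 0.771 RPM.

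In TIL25-1.5mm, 7 loci from TIL25_24PHAS_9480 to TIL25_24PHAS_9488 held 19 of the 29 positive pairs away from miR2275 positions. TIL25_24PHAS_9480 had 6 targets and TIL25_24PHAS_9481 had 5, all in the 3 libraries and all with an Allen score of 0. For TIL25_24PHAS_9480, the sites on TIL25_24PHAS_9482, TIL25_24PHAS_9484, TIL25_24PHAS_9485 and TIL25_24PHAS_9487 had the same values, 0.0553, 0.979 and 1.6 RPM. Targets with equal values cannot be counted as independent sites. TIL25_24PHAS_9484 was a target of 4 sources. The pair TIL25_24PHAS_13589 and TIL25_24PHAS_13585, first by the naming rule, had 1 read in each of 2 libraries (0.231 and 0.189 RPM).

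Over all groups, 11 pairs of loci were positive in both directions away from miR2275 positions, and 35 of the 119 target loci were also sources. Many of these sources had a cis site as well. At 265 of the 354 passing sites away from miR2275 positions, a cis site of the same small RNA was listed in the same library. All 265 passed, as did every listed cis site with an Allen score of 0. Whether the source made these cuts was not tested. At 44 of these the cis and the trans site had equal RPM.

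Trans sites away from miR2275 positions fell mostly into 2 registers of 24 nt, counted from the miR2275 position of their target locus. Of their 187 distinct positions, 97 were on loci with a passing miR2275 site, and 92 of these lay downstream of it. Divided by 24, the distance from the miR2275 position left a remainder of 12 at 40 of the 92 positions (43.5%) and of 23 at 27 (29.3%). An even spread would place 4.17% at each remainder. The phasiRNAs of such loci lie in a register themselves, so that spread is no baseline for cutting. Listed sites that did not pass left a remainder of 12 at 18 of 47 downstream positions (38.3%) and of 23 at 0. Cis sites had the first register and hardly the second: of 102 downstream positions, 77 (75.5%) had a remainder of 12 and 3 (2.94%) of 23. Positions in a locus share sources, targets and libraries, so these shares are given without a test. The median Allen score of these passing trans sites was 0 in both registers, and every listed site away from miR2275 positions with that score passed.

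**Figure D4:**
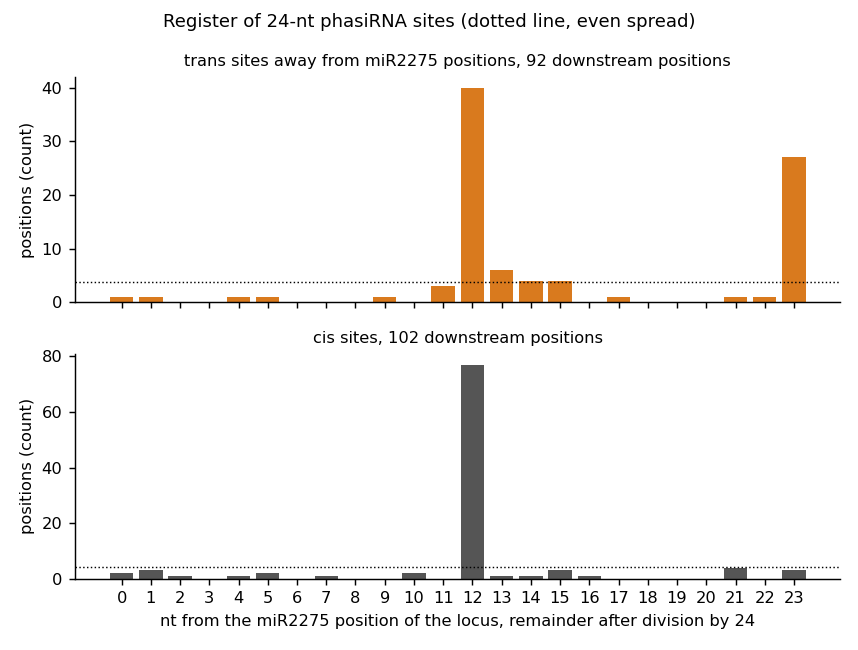
Bars count downstream positions by the distance in nt from the miR2275 position of the same locus, as the remainder after division by 24, for trans sites away from miR2275 positions (upper panel, 92 positions) and cis sites (lower panel, 102 positions). Trans sites peak at 12 (40 positions) and 23 (27 positions), and cis sites at 12 (77 positions).

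The second register came from few loci. Its 27 positions belonged to 1 source in Il14H, 3 in RIL003, 3 in TIL11 and 3 in TIL25. In Il14H and TIL11 these loci lie in the chromosome 4 block, and in RIL003 and TIL25 they are in the runs of neighbouring loci described above. The sites of each of the sources named next lay at a constant distance from the miR2275 positions of their targets. The distance was 287 nt downstream for TIL11_24PHAS_17336 (4 targets), for Il14H_24PHAS_11317, whose small RNA differs from it by C14U (2 targets), and for TIL25_24PHAS_9481 (2 targets). It was 479 nt for TIL11_24PHAS_17332 (4 targets) and TIL25_24PHAS_9480 (2 targets). In RIL003 the distances were 239 nt for RIL003_24PHAS_14190 (4 targets), 431 nt for RIL003_24PHAS_14191 (4 targets) and 359 nt for RIL003_24PHAS_14198 (3 targets). Of 21 sources with at least 2 targets that carry a miR2275 site, 13 had every position at 1 distance.

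Stage was compared within varieties to ask when in anther development these cuts occur. In the libraries of the varieties 6.67% of all phasiRNA sites passed. Trans interactions were more numerous at the meiotic length in RIL003, with 70, 81 and 82 per library at 1.5 mm (77.7 ± 6.66 SD, n = 3) and 0 to 11 in the 5 libraries of 0.4 and 0.7 mm (mean 3.4). The groups did not overlap, and the difference was 4.71 on the log2(count + 1) scale (exact permutation test, two-sided, p = 0.0179, the smallest this design allows). In TIL25 the counts were 61, 63 and 79 at 1.5 mm (67.7 ± 9.87 SD) and 0, 3 and 5 at 0.4 mm, without overlap, a difference of 4.56 with the smallest exact p of the design, 0.1. That 1.5-mm anthers of TIL25 are meiotic is an assumption here. In the maize lines the 9 libraries of 2 mm had 0 to 27 interactions (mean 7) and the 9 of 0.4 mm had 0 or 1, a difference of 1.84 within varieties (exact permutation p = 0.0167). In TIL11 the 1.5-mm libraries had 11, 11 and 16, while the 2-mm libraries had 0 and the 0.4- and 0.7-mm libraries 0 or 1. Counted jointly as meiotic, the 1.5- and 2-mm libraries were 1.68 higher (exact permutation p = 0.182), and with the 2-mm libraries left out, a choice made after seeing the data, the difference was 3.55 (p = 0.0179, adjusted 0.0746).

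After adjustment over the 25 tests by the Benjamini-Hochberg method, none had an adjusted p-value below 0.05, and 5 had an unadjusted p below 0.05. The adjusted p was 0.0893 for RIL003 and for the maize lines, 0.227 for TIL25 and 0.35 for TIL11. The RIL003 difference was of like size at miR2275 positions (4.10) and away from them (4.41), each with exact p = 0.0179. As a percent of listed pairs, the difference away from miR2275 positions turned (-1.35 percentage points, exact permutation p = 0.946). The number of passing miR2275 interactions with 24-PHAS loci moved with stage in the same libraries, from 0 to 26 at the premeiotic lengths of RIL003 to 69 to 73 at 1.5 mm, and in TIL25 from 3 to 17 at 0.4 mm to 72 or 73 at 1.5 mm. Depth moved with it. In RIL003 it was 3.2 to 4.73 M reads at the premeiotic lengths and 7.31 to 8 M reads at 1.5 mm, and in TIL25 1.71 to 2.56 M reads at 0.4 mm and 4.33 to 5.97 M reads at 1.5 mm. The part of depth in the result was not tested.

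Counts were also set side by side between varieties within the meiotic stage, where no exact permutation test had an adjusted p-value below 0.05. Of the maize lines at 2 mm, Il14H had 12 and 27 interactions, HP301 had 5 and 19, and the 2 B73 and 3 Oh43 libraries had 0. In HP301 all were away from miR2275 positions, and in Il14H 10 and 14 were at them. Among teosintes at 1.5 mm, TIL11 (12.7 ± 2.89 SD, n = 3) was below both TIL25 and RIL003 without overlap, by 2.34 and 2.54 on the log2 scale, each with the smallest exact p of the design, 0.1 (adjusted 0.227). TIL25 and RIL003 differed by 0.20 (exact permutation p = 0.2) and overlapped. The maize lines at 2 mm and TIL11 at 2 mm had a difference of -1.71, with TIL11 lower (exact permutation p = 0.382). As listed sites per variety depend on the loci annotated in its genome, counts between varieties do not share a base: as a percent of listed pairs RIL003 was the lower one, by a difference of -10.8 percentage points from TIL25 and of -3.75 from TIL11, so that both orders turned.

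The ago18 comparison asks whether loss of AGO18 changes these cuts. At 2 mm, ago18HT had 23, 18 and 0 interactions and ago18HM 2, 0 and 0, so the groups overlapped through ago18HT replicate 3. Most were at miR2275 positions, from the source identical to miR2275c-3p: 18, 17 and 0 in ago18HT and 2, 0 and 0 in ago18HM. Away from them ago18HT had 5, 1 and 0 and each ago18HM library 0. On the log2(count + 1) scale the difference was -2.28 at miR2275 positions and -1.195 away (exact permutation test, two-sided, p = 0.4 for each). Over both kinds the mutant was lower, with a difference of -2.42 on that scale (exact permutation test, two-sided, p = 0.4, adjusted 0.455, smallest possible 0.1). Without ago18HT replicate 3 the difference was -3.89, and without replicate 1 it was -1.60. Without replicate 1 or without replicate 2, ago18HT-2mm had 0 positive pairs. Of all phasiRNA sites in the ago18 libraries, 2.04% passed. At 0.5 mm the counts were 0 in both ago18HT libraries and 0, 0 and 1 in ago18HM, and at 5 mm they were 0 in all 6 libraries. Over all lengths the difference was -0.69 (exact permutation p = 0.34).

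The 17 positions where B73_24PHAS_53395 had positive targets in ago18HT-2mm give the same libraries site by site. They were chosen for passing in 2 ago18HT libraries, so their levels are a description. All 17 were listed in ago18HT replicates 1 and 2, with medians of 23.6 and 6.99 RPM. In replicate 3, 8 were listed, with a median of 0.113 RPM. In the ago18HM libraries 8, 7 and 9 were listed, with medians of 0.424, 0.111 and 0.126 RPM and a highest value of 1.16 RPM. In B73-2mm, 12 and 3 were listed, with a highest value of 1.12 RPM. The ago18HM, the B73 and the third ago18HT libraries lay in a like range, below the first 2 ago18HT libraries. Since miR2275 sites share these positions, its passing interactions moved with them: 66, 59 and 2 in ago18HT-2mm, 6 to 17 in ago18HM-2mm, and 20 and 3 in B73-2mm. B73 and ago18HT at 2 mm differed by 2.94 in trans interactions (exact permutation p = 0.4), with B73 at 0 in both libraries. Depths of these libraries were 7.44, 8.01 and 9.96 M reads in ago18HT-2mm and 7.97 to 12 M reads in ago18HM-2mm.

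**Figure D5:**
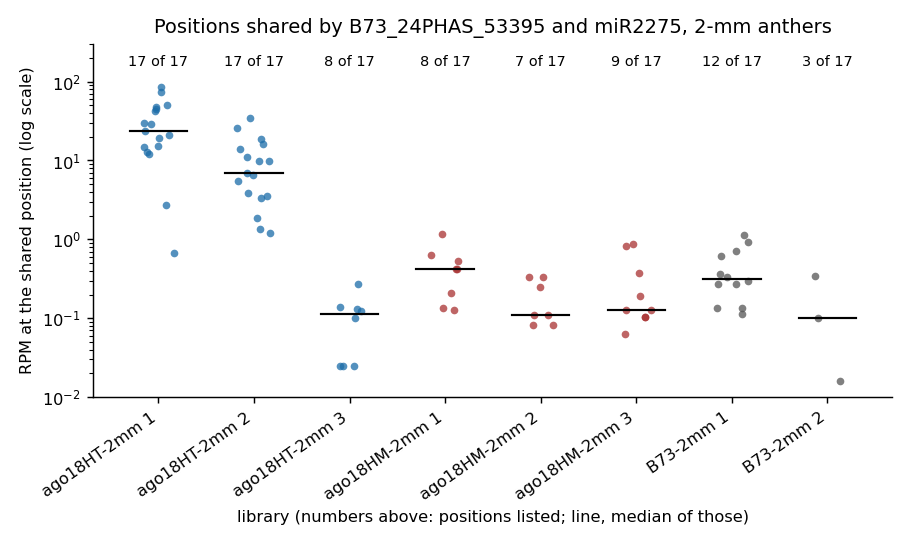
Points give RPM on a log axis at the 17 positions shared by B73_24PHAS_53395 and miR2275, in each 2-mm library of ago18HT (blue), ago18HM (red) and B73 (grey), with the median of the listed positions as a line and the number listed above. Replicates 1 and 2 of ago18HT have medians of 23.6 and 6.99 RPM, and the other 6 libraries have medians of at most 0.424 RPM.

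Passing trans sites of B73_24PHAS_53395 in the mutant were 3, each in 1 library. They were on B73_24PHAS_53480 (1.16 RPM, 11 reads) and B73_24PHAS_48858 (0.53 RPM, 5 reads) in ago18HM-2mm replicate 1 and on B73_24PHAS_48860 (0.37 RPM, 2 reads) in ago18HM-0.5mm replicate 2. The source of the other ago18HT positive pair, B73_24PHAS_30716, was not listed in any ago18HM library.

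Premeiotic 24-PHAS loci, those with abundant phasiRNAs already before meiosis, were rare among sources and targets. In the 5 varieties with a locus list, 2 of 281 premeiotic loci were the source of a passing trans site and 1 was a target, against 35 and 82 of 827 meiotic loci. These counts include sites at miR2275 positions. The meiotic loci take in the 2 sources identical to miR2275c-3p and their targets, 14 in Il14H and 18 in ago18HT. The study predicted a miR2275 site on few premeiotic loci, so that part of the contrast is not independent of miR2275. TIL11_24PHAS_17165 (chr4:3958843-3961420) and its neighbour TIL11_24PHAS_17166, both premeiotic, formed one such site in TIL11-0.4mm replicate 1, at 0.167 RPM and 1.5 reads with an Allen score of 0. TIL11_24PHAS_40107 was the other source, on the meiotic locus TIL11_24PHAS_40571 in TIL11-1.5mm replicate 2, at 0.375 RPM and 2 reads. None of the 43 positive pairs whose source and target are both in the lists had a premeiotic locus. Of these pairs, 10 in Il14H-2mm and 17 in ago18HT-2mm were at miR2275 positions and count as phasiRNA pairs by name only. The only passing site on a 21-PHAS locus was that of RIL003_24PHAS_29579 on RIL003_21PHAS_32418, in RIL003-0.4mm replicate 3, at 1.22 RPM and 4 reads with an Allen score of 6.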

How the data were processed

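For each of 63 anther libraries the authors deposited 2 tables from the nanoPARE pipeline, 1 for miRNAs and 1 for phasiRNAs. B73 and ago18 libraries were searched against loci of B73 RefGen_v5 and each other variety against its own loci, and the version of the pipeline is not given in the sources used here. The deposited RPM counts the 5′ ends of reads at a site, scaled by the authors to the size of the library. The deposited adjusted p-value comes from the EndCut step, as the authors ran it. The Allen score is the authors' mismatch score. The deposited fold change was not used. Positions are counted along the target sequence, which runs past the annotated locus by up to 990 nt.

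The members, lists and tests were chosen with earlier results of these data known. Reads were RPM divided by the commonest RPM of the library, taken as 1 read (which also gave the depth), and 77.4 to 89.9% of values per library were then within 0.01 of a whole number. Counting error alone limits low values. Counts of interactions were compared between libraries on a log2(count + 1) scale by two-sided exact permutation tests within varieties or lengths, and the 25 p-values were adjusted by the Benjamini-Hochberg method. Stages follow the study except in TIL25, whose meiotic length the study gives as 2 mm while the labels hold 1.5 mm, which was taken as meiotic. TIL11 at 1 mm was in neither stage. Locus classes, positions and small RNA sequences came from the study's locus list, complete for B73, HP301, Il14H, Oh43 and TIL11. The loci named were, per group, the source with most positive targets, the target with most positive sources, the pair with the lowest mean adjusted p-value at and away from miR2275 positions (ties by name), every source with at least 5 positive targets, pairs positive in 2 groups, premeiotic and 21-PHAS loci, and sources positive in ago18HT. Other loci named, such as those with the highest RPM, the loci of equal values and of the second register, were chosen after their values were seen. Replicate numbers did not pair the libraries. Alternatives were other thresholds, an Allen score limit, other units of counting, at least 2 reads, another pseudocount, other definitions of a shared position, the replicate number as a block, the omission of single libraries and, added after seeing the data, of the TIL11-2mm libraries. The tests were checked on simulated data. Python 3.11.15, pandas 2.3.3, NumPy 2.4.6, SciPy 1.17.1 and matplotlib 3.10.9 were used.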

Additional observations from a re-analysis of the deposited data

Results flagged for a closer look

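The 1-mm anthers of TIL11 belong to neither stage and entered no comparison, and one of their libraries had trans interactions. TIL11-1mm replicate 3 had 5 interactions over 8 sites, while replicates 1 and 2 had 0. All had the same source, TIL11_24PHAS_3550, and the same signal of 0.0196 RPM, or 0.12 reads, on neighbours of the source on chromosome 1 and on TIL11_24PHAS_43029 and TIL11_24PHAS_43032 on chromosome 9. Sites with equal parts of a read cannot be counted as independent, so these 5 interactions are given as a value only. Passing miR2275 interactions were 34, 7 and 35 in the 3 libraries.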

How the results depend on the processing

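Of 597 alternatives over 34 results, 573 kept the direction and the side of the threshold or stayed within 1.5 times the count, 20 moved and 4 reversed, and no test had an adjusted p-value below 0.05 under any of them. Reversed were the ago18 difference at 0.5 mm with adjusted p below 0.1 (-0.17) and, as a percent of listed pairs, TIL11 against RIL003 (-3.75), TIL25 against RIL003 (-10.8) and the stage difference of RIL003 away from miR2275 positions (-1.35). With 1 replicate enough, positive pairs were 19 in HP301-2mm, 23 in TIL11-1.5mm, 7 in TIL25-0.4mm, 28 in Il14H-2mm and 194 in all away from miR2275 positions. With 3 replicates required they were 0 in TIL25-0.4mm and in ago18HT-2mm. TIL25-0.4mm had 0 with adjusted p below 0.01, 5 with adjusted p below 0.1 and 0 with an Allen score of at most 4, where ago18HT-2mm had 9 and all groups 39 at miR2275 positions. With at least 2 reads, positive pairs were 1 in HP301-2mm, 43 in RIL003-1.5mm, 2 in TIL11-1.5mm and 36 in all away from miR2275 positions. Leaving out 1 library at a time gave 0 to 1 in TIL25-0.4mm (0 without replicate 1 or 3) and 0 to 18 in ago18HT-2mm (0 without replicate 1 or 2). The cause of these changes beyond the stricter or looser count was not tested.

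The replicate numbers did not pair the libraries: 20 of 84 same-numbered pairs had a correlation of their deviations over 0.1 (median 0.01), and 21 of 164 pairs with different numbers did (median -0.01). With the replicate number as a block, the exact permutation test gave 1.93 for stage in the maize lines (p = 0.125, adjusted 0.481), 4.81 in RIL003 (p = 0.0556, adjusted 0.463) and -2.42 for ago18 at 2 mm (p = 0.5, adjusted 0.595), and no call changed, as there was none.

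Groups of 2 or 3 libraries limit the exact p-values, to 0.1 at best with 3 against 3. Sites of 1 read or less limit what counts away from miR2275 positions can show.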

Other observations

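Listed trans sites away from miR2275 positions that did not pass had the first register and not the second. Of 47 downstream positions, 18 (38.3%) left a remainder of 12 and 0 of 23. Sites of 21-nt phasiRNAs and of other miRNAs on the same kind of locus left a remainder of 12 at 5 of 73 downstream positions (6.85%).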
